A study of Mus musculus with 18 samples.

Results

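The chemoattractant receptors described here are Fpr1, Fpr2, C3ar1, C5ar1, Ptafr, Ltb4r1, Cxcr2, Cxcr4, Ccr1 and Ccr2. They were chosen by name, as receptors that guide myeloid cells, with earlier results of these data known. They make up 10 of the 23329 genes counted. Their transcripts were read by RNA sequencing in FDH cells, immortalised fetal liver cells of BALB/c mouse embryos (E14.5), used at passages 10 to 12. The mice lacked both signalling subunits of the IL-3 receptor, with the background βc-/- βIL-3-/-, and βc was put back into all cells by transduction. The wild-type line was given wild-type IL3Rα as well, the subunit that binds IL-3, and the P248L line was given IL3Rα with the amino acid change P248L, the Site 4 mutant of the series title. Untreated cells of both lines were in growth medium with doxycycline and 100 ng/ml mouse SCF, the ligand of Kit. Day 2 and day 5 cells were washed and kept in 100 ng/ml IL-3, in a medium whose recipe names neither doxycycline nor SCF, so that each change with time covers the gain of IL-3 and the loss of both. Each of the 6 groups had 3 libraries, with RNA from 1000000 cells per condition. Each receptor variant was carried by 1 line, so a difference between the receptors and one between the lines cannot be told apart. Whether replicates came from separate cultures is not stated, and p-values then cover only the spread between these libraries, which may be technical.

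Chemoattractant receptors are G protein-coupled receptors that steer migrating leukocytes up a gradient of their ligand, mostly through the inhibitory G protein Gi and the PI3Kγ and Rac enzymes behind it. Formyl peptide receptors sense bacterial and mitochondrial peptides, C3ar1 and C5ar1 sense fragments of activated complement, and Ptafr and Ltb4r1 sense the lipids platelet-activating factor and leukotriene B4. Chemokine receptors divide the work of moving myeloid cells, with Cxcr4 holding cells in the bone marrow, Cxcr2 releasing and recruiting neutrophils, and Ccr2 releasing and recruiting monocytes.

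Reads in genes ranged from 13844612 to 27181962 per library. Libraries of 1 group differed by more than sampling noise, with a chi-square per degree of freedom of 4.86 to 37.3 in most pairs. P248L untreated library 1 and P248L day 2 library 3 stood apart, at 142 and 200.3 and at 93.2 and 185 from the others of their groups, and results that hang on them are given with and without them. The 10 myeloid progenitor markers (Kit, Flt3, Mpo and others) all had reads in untreated cells and summed to 10491 to 11459.9 CPM (counts per 1000000 reads in genes after TMM scaling) in wild-type untreated and 8823 to 11679 CPM in P248L untreated libraries. The hepatocyte, endothelial and stromal markers summed to at most 14.3 CPM in any library, with Alb at 0 reads in all 18, and lymphoid markers to at most 1.2 CPM. With IL-3 the progenitor sum was 139 to 176 CPM at wild-type day 5 and 534 to 654 CPM at P248L day 5. In bulk RNA, fewer cells of a type and less RNA per cell cannot be told apart.

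The promoters of 4 receptors that rose in both lines by day 5 are shown first. They are not the 4 with the largest rises. C3ar1, not shown, rose by 8.96 in wild-type and 10.49 in P248L cells on the log2 scale by day 5. Ltb4r1, shown, rose by 4.06 and 6.15. The sequences are RefSeq's on GRCm38.p6 (C57BL/6J, whereas the cells are BALB/c), run 5′ to 3′ toward the transcription start of the RefSeq table, which for C5ar1 lies inside the annotated gene, and leave out annotated UTR bases. Capitals mark matches of 5 short motifs, and matches outside the stretches shown are given by position only. The motifs were searched on both strands from 250 bases before to 50 bases after the start. For Ccr2, which is not shown but is among the 10 windows searched, the start also lies inside the annotated gene. There 233 of the 250 bases before the start are annotated UTR. Fpr1 is shown from chr17:17883941-17884189, minus strand, Fpr2 from chr17:17887574-17887823, plus strand, C5ar1 from chr7:16259339-16259512, minus strand, and Ltb4r1 from chr14:55765712-55765961, plus strand.
Fpr1: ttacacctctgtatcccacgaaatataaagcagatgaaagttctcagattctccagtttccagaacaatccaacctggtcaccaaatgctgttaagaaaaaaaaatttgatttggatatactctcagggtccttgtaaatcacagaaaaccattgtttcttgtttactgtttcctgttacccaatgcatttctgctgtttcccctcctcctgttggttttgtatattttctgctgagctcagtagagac
Fpr2: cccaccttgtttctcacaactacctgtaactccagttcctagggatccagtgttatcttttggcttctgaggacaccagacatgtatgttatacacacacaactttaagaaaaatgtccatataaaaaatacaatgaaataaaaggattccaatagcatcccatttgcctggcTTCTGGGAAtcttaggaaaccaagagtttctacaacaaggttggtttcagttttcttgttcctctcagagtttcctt
C5ar1: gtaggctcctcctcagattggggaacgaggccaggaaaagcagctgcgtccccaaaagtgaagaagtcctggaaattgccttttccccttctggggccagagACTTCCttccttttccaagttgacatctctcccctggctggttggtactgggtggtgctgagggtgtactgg
Ltb4r1: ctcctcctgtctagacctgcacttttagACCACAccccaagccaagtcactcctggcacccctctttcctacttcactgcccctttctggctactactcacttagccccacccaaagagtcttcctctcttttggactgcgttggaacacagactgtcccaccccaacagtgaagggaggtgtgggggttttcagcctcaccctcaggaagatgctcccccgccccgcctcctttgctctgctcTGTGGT
The STAT motif TTCNNNGAA, the same on both strands, matched in 1 of the 10 receptor windows, that of Fpr2 at position -77 from the start, and in 8.3% of 32851 promoter windows of the same length. The Fpr1 and Fpr2 genes lie 3884 bases apart, and the Fpr1 window held no match of any of the 5 motifs. The windows of C3ar1, Cxcr4, Ccr2 and Ptafr held none either. The ETS and PU.1 motif GGAAGT matched in 3 windows, C5ar1 at -190 and -72, Cxcr2 at -24 and Ltb4r1 at the start itself, against 23.8% of all windows. The RUNX motif TGTGGT matched in 4, C5ar1 at -234, Ccr1 at -58, Ltb4r1 at -222 and -6 and Fpr2 at 33, against 16.8%. The IRF motif (GAAA, 2 bases of any kind and GAAA again) and the C/EBP motif TTGCNNAA matched in 0 of the 10, against 3.44% and 10.8% of all windows. No matches overlapped each other in the receptor windows. A match is a string of letters and not a measured binding site.

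**Figure D1:**
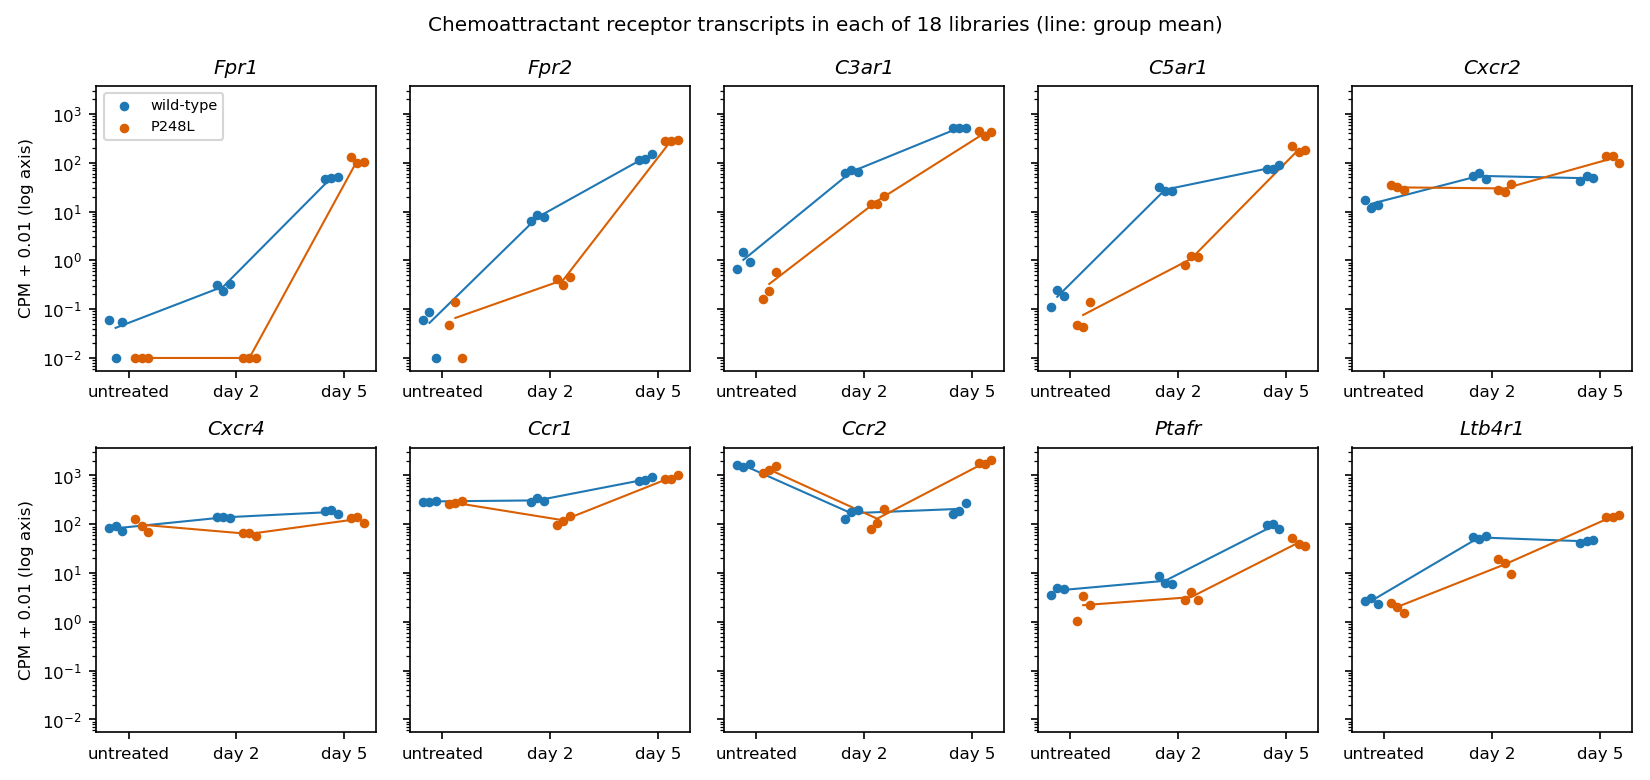
Each panel plots 1 receptor, with CPM plus 0.01 on a log axis against untreated, day 2 and day 5, 1 point per library and a line through the means of 3 libraries. Fpr1 sits on the floor in all P248L untreated and day 2 libraries and between 99.6 and 129 CPM at P248L day 5, and Ccr2 alone stands between 1108 and 1727 CPM in untreated and between 78.2 and 205 CPM in day 2 libraries.

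All 10 receptors passed the filter on low counts, although no untreated library held more than 6 reads of Fpr1, Fpr2 or C5ar1. A receptor is said to rise or fall at an edgeR adjusted p under 0.05 over the 11942 genes tested. In wild-type cells 7 of 10 rose and 1 fell at day 2, when 43.9% of all tested genes changed (22.1% up, 21.8% down), and 9 rose and 1 fell by day 5, when 73.1% changed (35.7% up, 37.4% down). In P248L cells 4 rose and 3 fell at day 2, beside 40% of all genes (18.5% up, 21.5% down), and 8 rose and 0 fell by day 5, beside 71.1% (34.8% up, 36.2% down). The median log2 fold change of the 10 was 2.47 at wild-type day 2, 4.22 at wild-type day 5, 0.26 at P248L day 2 and 5.21 at P248L day 5. In the P248L day 2 median Fpr1, with 0 reads in both groups, was entered at 0. The medians over all tested genes were 0, -0.05, -0.01 and -0.02. From day 2 to day 5, 6 rose and 0 fell in wild-type cells (70.7% of all genes changed, 36% up and 34.7% down; receptor median 1.47) and 10 rose in P248L cells (70.2%, 37.1% up and 33.1% down; receptor median 3.78). The libraries of the groups did not overlap for 9 receptors at wild-type day 2 (64.2% of all genes), 10 by day 5 (83.2%) and 8 from day 2 to day 5 (82.6%). In P248L cells it was 7 at day 2 (35.8%), 9 by day 5 (70.6%) and 10 from day 2 to day 5 (70.6%). Comparisons within a line share libraries, and the untreated libraries serve both times. The shares of all genes that changed by day 5 were large, so the totals at day 5, rises and falls together, lie near that background. The rises alone, 9 and 8 of 10, stand beside 35.7% and 34.8% of all genes, and the receptors were not tested as a set. The receptors were chosen with earlier results of these data known. Fpr1, Fpr2 and C5ar1 passed the filter on low counts through IL-3 groups in which they were high. Counts of receptors here and below are therefore given as a description. The sizes of the changes are given receptor by receptor below.

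Both formyl peptide receptors rose from a handful of reads or none to abundant transcripts by day 5. Fpr1 (chromosome 17, 17876471 to 17883939 on GRCm38.p6), the high-affinity receptor for formylated peptides, had 1, 0 and 1 reads in wild-type untreated libraries 1 to 3 and 7, 4 and 6 reads at day 2. At wild-type day 5 it stood at 47.3, 49.9 and 51 CPM. The rise was therefore late in this line: 9.78-fold at day 2 (17 reads against 2, counting interval 2.32 to 87.3) and 1691-fold by day 5 (interval 468 to 13968), with no overlap of the groups. In P248L cells Fpr1 had 0 reads in all 3 untreated and all 3 day 2 libraries and 129, 99.6 and 105 CPM at day 5. That is at least 2758-fold over untreated and at least 2048-fold over day 2, from a floor of 3 reads over the group. The intervals and floors cover counting error only. At day 2 Fpr1 was at least 5.14-fold lower in P248L than in wild-type cells, from 0 against 17 reads (edgeR adjusted p = 0.00021). At day 5 the order had turned, and P248L libraries were all above wild-type ones (log2 fold change 1.17±0.15 SE, edgeR adjusted p = 2.1e-05).

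Fpr2 (chromosome 17, 17887824 to 17893952), a receptor for formyl peptides, serum amyloid and annexin fragments, had 1, 2 and 0 reads in wild-type untreated libraries. It stood at 6.54, 8.49 and 7.73 CPM at wild-type day 2 and at 113, 121 and 153 CPM at day 5. It had risen 171-fold by day 2 (interval 58.2 to 833), when Fpr1 had 4 to 7 reads per library, and 2915-fold by day 5 (interval 997 to 14140.2). In P248L cells it had 1, 4 and 0 reads untreated, 0.413, 0.308 and 0.441 CPM at day 2 and 282, 275 and 298 CPM at day 5. The P248L rise was 2.40±0.55 on the log2 scale at day 2 and 11.90±0.31 by day 5 (edgeR adjusted p = 0.0022 and 3.7e-15). Both values rest on those 5 untreated reads, 4 of them in library 2, and were 3.735 and 13.16 without that library. P248L cells held less Fpr2 than wild-type cells at day 2 (-4.26±0.27, 9.5e-10) and more at day 5 (1.15±0.17, 1.9e-05), without overlap at either time. The remaining formyl peptide receptor genes of the list, Fpr3, Fpr-rs3 and Fpr-rs4, reached at most 2 reads in any library.

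Both complement receptors rose in both lines. C3ar1 (chromosome 6, 122847140 to 122856157), the receptor of C3a, was read at 0.646, 1.47 and 0.932 CPM in untreated wild-type cells, 60.4, 69.8 and 65.4 CPM at day 2 and 523, 521 and 516 CPM at day 5. P248L libraries held 0.15, 0.229 and 0.576 CPM, then 14, 14.6 and 20.7 CPM and 454, 350.3 and 428 CPM. No groups overlapped, within a line or between lines. By day 2 it had risen by 5.96±0.27 in wild-type and 5.84±0.31 in P248L cells on the log2 scale (edgeR adjusted p = 6.4e-12 and 3.8e-10). P248L levels were lower in untreated cells (-1.87±0.39, 0.0024) and at day 2 (-1.995±0.21, 5.4e-07), and at day 5 the difference did not pass (-0.34±0.19, 0.17). Without P248L untreated library 1 and day 2 library 3 the day 5 difference passed at the same size (-0.34, 0.032). It also passed in a fit of only the day 5 groups (-0.36, 0.009). The untreated difference rests on 4, 7 and 9 P248L reads against 13, 38 and 21 wild-type reads, and did not pass in a fit of only these groups (-1.82, 0.079).

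C5ar1 (chromosome 7, 16246743 to 16259540), the receptor of the complement fragment C5a, was lower in P248L than in wild-type cells at day 2 and higher at day 5. Wild-type cells held 0.0995, 0.232 and 0.177 CPM untreated, 32.3, 26.2 and 25.9 CPM at day 2 and 74.8, 75.3 and 91.3 CPM at day 5. In P248L cells it had 1, 1 and 2 reads untreated, 0.786, 1.23 and 1.18 CPM at day 2 and 221, 165 and 182 CPM at day 5. At day 2 every wild-type library thus held at least 25.9 CPM and no P248L library over 1.23 CPM. P248L cells held less C5ar1 at day 2 (-4.76±0.21, edgeR adjusted p = 1.3e-11) and more at day 5 (1.24±0.16, 4.8e-06), both without overlap. The second C5a receptor, C5ar2 (deposited under the older name Gpr77), lies 2588 bases from C5ar1 and had 0.0424, 2.63 and 5.83 CPM in the wild-type groups (untreated, day 2, day 5) and 0.129, 0.29 and 13.7 CPM in those of P248L. It was lower in P248L cells at day 2 (-3.12±0.41, 1.1e-05) and higher at day 5 (1.23±0.27, 0.0011).

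The lipid mediator receptors rose at different times. Ltb4r1 (chromosome 14, 55765962 to 55768492), the high-affinity leukotriene B4 receptor, had 2.69, 3.02 and 2.31 CPM in untreated wild-type cells, 53.6, 49.5 and 58.2 CPM at day 2 and 40.4, 45.5 and 48 CPM at day 5. The P248L values were 2.48, 2 and 1.54 CPM, then 19.8, 15.8 and 9.71 CPM and 138, 141 and 157 CPM. Wild-type cells had their highest level at day 2, and the change from day 2 to day 5 did not pass (-0.27±0.19, edgeR adjusted p = 0.21). It passed without the pair of libraries that stood apart (-0.27, 0.031), in a fit of only these groups (-0.27, 0.017) and with no scaling (-0.54, 0.026). P248L cells went on rising (3.26±0.205, 1.6e-10). The low-affinity receptor Ltb4r2, 1895 bases away, had at most 9 reads in any library. Ptafr (chromosome 4, 132564067 to 132582683), the platelet-activating factor receptor, stood at 3.58, 4.84 and 4.75 CPM untreated, 8.5, 6.31 and 6.01 CPM at day 2 and 98.3, 99.2 and 79.7 CPM at day 5 in wild-type libraries. P248L libraries held 1.05, 3.34 and 2.18 CPM, then 2.81, 4 and 2.79 CPM and 51.3, 39.9 and 36.5 CPM. Ptafr did not pass at day 2 in either line (edgeR adjusted p = 0.062 in wild-type and 0.19 in P248L cells), and rose by day 5 in both (4.39±0.29, 2.3e-10 and 4.26±0.30, 7.3e-10). The wild-type day 2 difference did pass without P248L untreated library 1 (0.66, 0.012) or library 2 (0.67, 0.027), without the pair of libraries that stood apart (0.66, 0.0099), in a fit of only these groups (0.65, 0.011) and with DESeq2 (0.68, 0.038), and the P248L one without P248L untreated library 2 (1.075, 0.014). Ptafr was the receptor that passed as lower in P248L cells at all 3 times: -0.99±0.30 untreated (0.024), -1.12±0.29 at day 2 (0.0055) and -1.12±0.25 at day 5 (0.0013). The untreated difference did not pass without wild-type untreated library 2 or 3 (0.064 and 0.088) or P248L untreated library 1 (-0.63, 0.11), nor in a fit of only these groups (-0.98, 0.17).

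The CXC chemokine receptors were present before IL-3 in both lines. Cxcr2 (chromosome 1, 74153994 to 74161246), which answers Cxcl1 and Cxcl2 and brings neutrophils out of the marrow, had 17.4, 12.1 and 13.7 CPM in untreated wild-type cells, 54.2, 61.3 and 46.2 CPM at day 2 and 42.9, 53.3 and 48.4 CPM at day 5. P248L libraries began higher, at 34.7, 31.8 and 27.5 CPM, held 27.1, 25.2 and 37.1 CPM at day 2 and reached 136, 135 and 101 CPM at day 5. Cxcr2 was the receptor that was higher in untreated P248L cells (1.125±0.18, edgeR adjusted p = 0.00019), lower at day 2 (-0.86±0.18, 0.001) and higher again at day 5 (1.365±0.18, 5.7e-06), with no overlap at any of these times. It rose at day 2 in wild-type cells (1.91±0.18, 1.6e-07), whereas the P248L difference of -0.08±0.18 did not pass (0.77). Its neighbour Cxcr1, 30538 bases away, had 29, 24 and 36 reads at wild-type day 5, 2, 0 and 1 reads at P248L day 5 and 0 reads in all libraries of the other groups.

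Cxcr4 (chromosome 1, 128588199 to 128592299), the Cxcl12 receptor that retains progenitors and young granulocytes in the marrow, had the narrowest range of the 10. Wild-type cells held 85.4, 90.2 and 72.3 CPM untreated, 144, 138 and 133 CPM at day 2 and 183, 193 and 159 CPM at day 5. The P248L values were 130.4, 93.4 and 70.2 CPM untreated, 67.2, 65.4 and 57.6 CPM at day 2 and 135, 143 and 105 CPM at day 5. In wild-type cells it rose at day 2 (0.74±0.18, edgeR adjusted p = 0.0023) and stood higher than untreated by day 5 (1.11±0.18, 2.1e-05). In P248L cells it fell at day 2 (-0.63±0.18, 0.0091), a call carried by untreated library 1: without that library the value was -0.37 (0.063), and without it and day 2 library 3 it was -0.30 (0.14). It did not pass in a fit of only these groups either (-0.63, 0.12). The P248L day 5 value did not pass (0.38±0.18, 0.063), and passed without the same pair of libraries (0.64, 0.00073), without untreated library 1 alone (0.64, 0.0012), without day 5 library 3 (0.50, 0.027), with the replicate block (0.395, 0.015) and with DESeq2 (0.45, 0.026). The lines differed at day 2 (-1.13±0.18, 8e-05) and at day 5 (-0.48±0.18, 0.033), and the day 5 difference was lost without wild-type day 5 library 1 or 2 (0.08 and 0.11) or P248L day 5 library 1 or 3 (0.051 and 0.15) and with no scaling (-0.36, 0.095). Cxcl12, its ligand, had 0 reads in all 18 libraries.

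Ccr1 (chromosome 9, 123962126 to 123968692), a receptor of several inflammatory CC chemokines on neutrophils and monocytes, was abundant throughout. Untreated wild-type cells held 285, 292 and 304 CPM, with 283, 344 and 299 CPM at day 2 and 773, 795 and 913 CPM at day 5. P248L cells held 256, 271 and 297 CPM, then 97.5, 115 and 149.9 CPM and 855, 845 and 1031 CPM. No difference passed between untreated lines (-0.10±0.15, edgeR adjusted p = 0.65) or at day 5 (0.14±0.15, 0.47), while at day 2 all P248L libraries lay below all others. P248L Ccr1 fell at day 2 (-1.19±0.15, 7.1e-06) and then rose (2.92±0.16 from day 2 to day 5, 2e-11). In wild-type cells the day 2 value did not pass (0.07±0.15, 0.72), and its sign turned under upper-quartile factors (-0.02) and also without scaling (-0.10).

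Ccr2 (chromosome 9, 124101918 to 124109140), the receptor of Ccl2 that marks monocytes and their progenitors, fell at day 2 in both lines. It was the most abundant of the 10 in untreated cells, at 1619, 1524 and 1727 CPM in wild-type and 1108, 1299 and 1563 CPM in P248L libraries. At day 2 it stood at 127, 181 and 197 CPM in wild-type and 78.2, 107 and 205 CPM in P248L libraries (-3.27±0.30, edgeR adjusted p = 7.5e-08, and -3.35±0.30, 1.4e-07 against untreated). At day 5 the lines had parted: wild-type libraries stayed low at 165, 186 and 269 CPM, and P248L libraries stood at 1780.5, 1721 and 2032 CPM. The highest wild-type day 5 library was thus far below the lowest P248L one. P248L cells were 3.16±0.29 above wild-type cells on the log2 scale (1e-07) and rose by 3.83±0.30 from day 2 to day 5 (3.3e-09), while the wild-type change from day 2 to day 5 did not pass (0.29±0.27, 0.34). Against untreated, the P248L day 5 value did not pass (0.48±0.27, 0.12). It passed with the replicate block (0.50, 0.027), in a fit of only these groups (0.52, 0.035) and without P248L day 2 library 3 (0.48, 0.038). That library had the highest P248L day 2 level. Without it the lines also differed at day 2 (-0.87, 0.0075), where the full data gave -0.38±0.27 (0.31).

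Ccr3, the eosinophil eotaxin receptor 70225 bases before Ccr2, had at most 3 reads in any library. Cx3cr1, the fractalkine receptor of monocytes, fell in wild-type cells from 3.98, 6.31 and 5.28 CPM untreated to 1.22, 0.459 and 0.836 CPM at day 2 and 0.183, 0.284 and 0.272 CPM at day 5 (edgeR adjusted p = 1.7e-05 and 1.2e-07 against untreated). In P248L cells it stood at 1.91, 1.41 and 0.833 CPM, at 1.12, 1.11 and 2.21 CPM and at 1.48, 2.07 and 3.08 CPM, and it was above wild-type at day 5 (3.12±0.50, 5.7e-05).

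**Figure D2:**
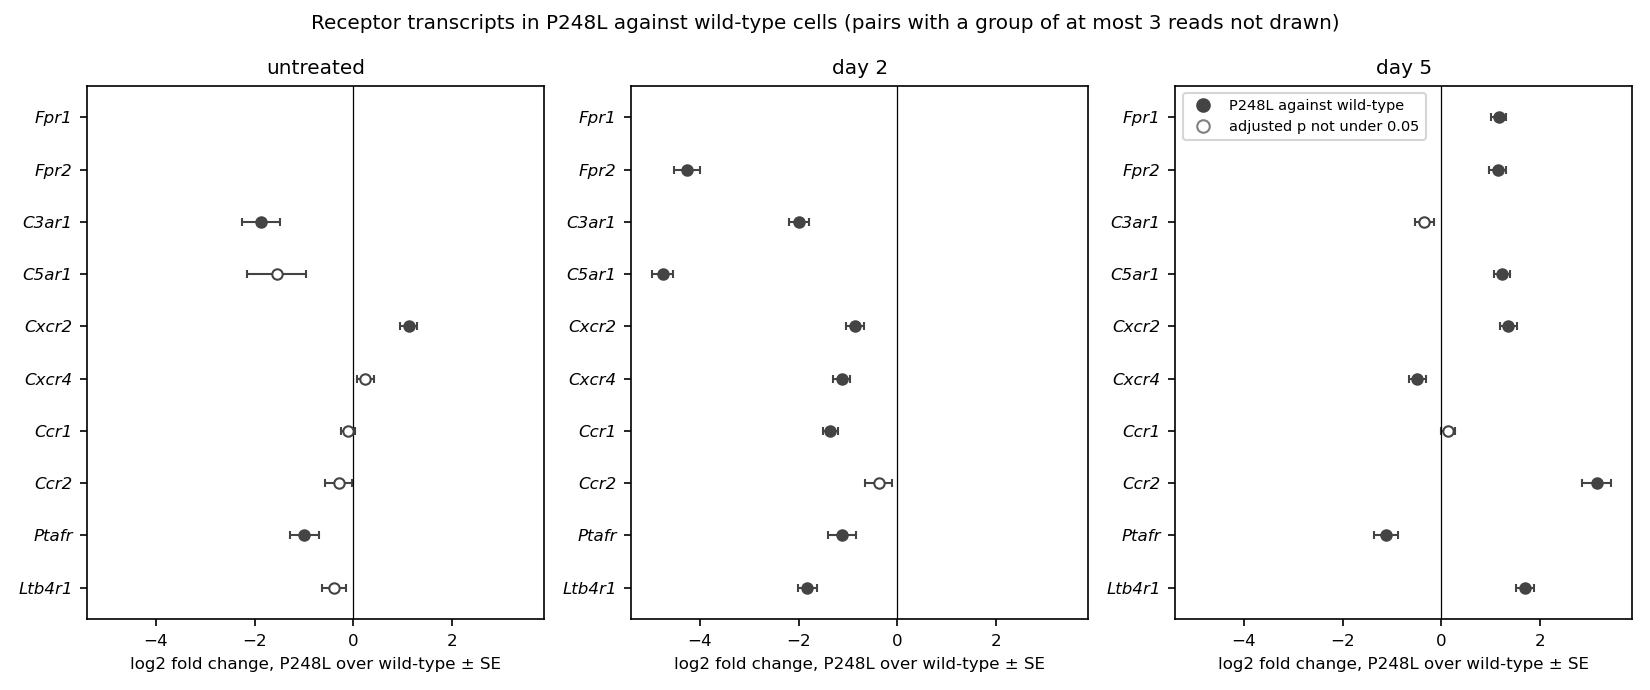
Each panel gives the log2 fold change of P248L over wild-type cells with its SE for untreated, day 2 and day 5 cells, with open points where the edgeR adjusted p was not under 0.05; pairs in which a group had at most 3 reads are not drawn. All points drawn lie left of 0 at day 2, and at day 5 Ccr2 lies farthest right at 3.16.

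Between the lines, untreated cells differed in 3 of 10 receptors, Cxcr2 higher and C3ar1 and Ptafr lower in P248L cells, beside 21.7% of all genes (10.3% higher, 11.3% lower); the libraries of these 3 did not overlap, as for 34.3% of all genes. At day 2, 0 were higher and 9 lower in P248L cells, beside 35.8% of all genes (15.5% higher, 20.3% lower), and the libraries of these 9 did not overlap, as for 46.3% of all genes. The receptor median was -1.59, with Fpr1 at its bound, against -0.00357 over all genes. Ccr2 was the receptor that did not pass. At day 5, 6 were higher (Fpr1, Fpr2, C5ar1, Cxcr2, Ccr2 and Ltb4r1) and 2 lower (Cxcr4 and Ptafr), beside 45.5% of all genes (22.8% higher, 22.7% lower). The receptor median was 1.16 against 0.02, and the libraries of 9 receptors did not overlap, as for 65.9% of all genes. Markers of other cell types and stages are given beside these differences, and they did not all go the same way. The progenitor markers summed to 3410 to 3972 CPM in wild-type and 5918 to 10754 CPM in P248L libraries at day 2. At day 2 the 10 neutrophil markers summed to 15144 to 18636 CPM in wild-type and 97.2 to 172 CPM in P248L libraries, with Retnlg at 0 reads in P248L cells. At day 5 they summed to 9302 to 14994 CPM in wild-type and 28353 to 40555 CPM in P248L libraries, with 0 markers without reads. Most of the P248L sum was S100a8 and S100a9, with means of 14043 and 17049.8 CPM against 4374 and 4534 CPM in wild-type cells. Means of Ltf, Ngp, Camp, Lcn2 and Retnlg were also higher in P248L cells. Those of Mmp9 (111 against 106 CPM) and Mmp8 (1276 against 1334 CPM) were near the wild-type means, and that of Cd177 was lower (71.5 against 102 CPM). The 13 monocyte and macrophage markers summed to 430.5 to 482 and 362 to 374 CPM at day 2, and to 2699 to 2882 and 2494 to 2899.7 CPM at day 5, with Marco, C1qa, C1qb and C1qc at 0 reads in P248L day 5 and at 5, 2, 2 and 44 reads in wild-type day 5. Within that list F13a1, a coagulation factor chain of monocytes, stood at 457±23.6, 5.85±1.3 and 100±20.2 CPM (SD, n = 3) in wild-type groups and 224±40.5, 23±4.19 and 832±59 CPM in P248L groups. Other markers of the list with means of 10 CPM or more at wild-type day 5 went both ways. In wild-type and P248L day 5 cells Cd14 stood at 204 and 627 CPM and Csf1r at 203 and 223 CPM. Cd68 stood at 927 and 348 CPM, Emr1 (the older name of Adgre1) at 795 and 648 CPM, Mrc1 at 485 and 38.5 CPM and Siglec1 at 94.1 and 4.88 CPM. The 10 basophil and mast cell markers summed to 2177 to 3173 CPM at wild-type day 5 and 55.9 to 84.2 CPM at P248L day 5. Most of the wild-type sum was Cpa3, a mast cell protease, which stood at 2552±490.2 CPM there and at 37.8±10.4 CPM in P248L cells (SD, n = 3). Prss34 had 0 reads in both groups, and Fcer1a and Mcpt4 had 7 and 6 reads at wild-type day 5 and 0 at P248L day 5. The part of such cells in the receptor differences was not tested.

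**Figure D3:**
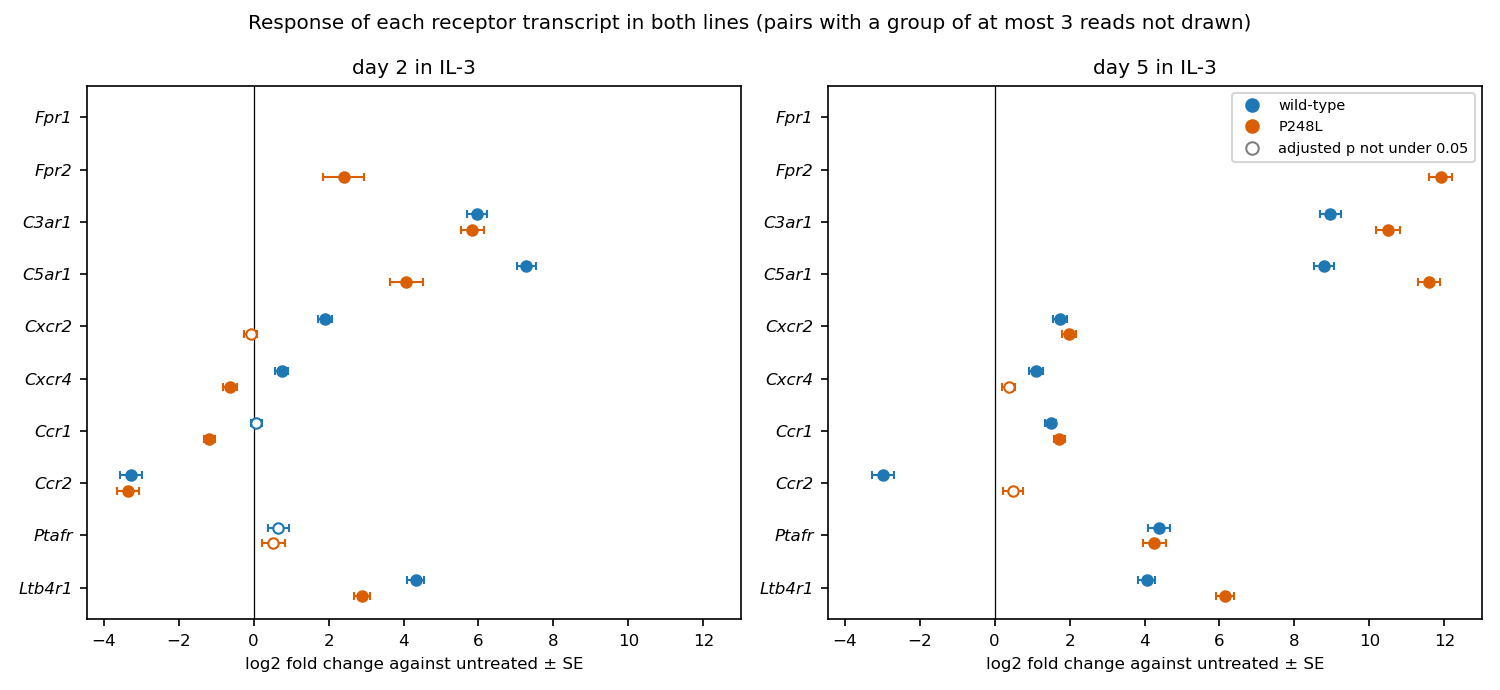
For each receptor the log2 fold change against untreated with its SE is plotted for wild-type and P248L cells, at day 2 on the left and day 5 on the right, with open points where the edgeR adjusted p was not under 0.05; pairs in which a group had at most 3 reads are not drawn. At day 2 the SE bars of both lines overlap for C3ar1, Ccr2 and Ptafr, and at day 5 Ccr2 lies at -2.97 in wild-type and 0.48 in P248L cells.

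The difference between the lines' changes was tested directly as well. At day 2, 0 changes were larger and 6 smaller or more negative in P248L cells (Fpr2, C5ar1, Cxcr2, Cxcr4, Ccr1 and Ltb4r1), beside 9.55% of all genes (3.05% larger, 6.5% smaller). C3ar1, Ccr2 and Ptafr gave differences of -0.13±0.58, -0.08±0.38 and -0.13±0.42 that did not pass (edgeR adjusted p = 0.94, 0.94 and 0.89). For Cxcr2 the difference was -1.98±0.25 (4.5e-05), for Cxcr4 -1.37±0.25 (0.0014), for Ccr1 -1.26±0.21 (0.00053) and for Ltb4r1 -1.43±0.31 (0.0052). That of C5ar1 (-3.21±0.88, 0.032) rests on few untreated reads, and it did not pass without wild-type untreated library 1 (0.067), wild-type day 2 library 1 (0.051) or any P248L untreated library (0.069, 0.054 and 0.18). At day 5, 4 were larger (C3ar1, C5ar1, Ccr2 and Ltb4r1) and 1 smaller (Cxcr4), beside 26.9% of all genes (14.7% larger, 12.2% smaller). The largest of these was Ccr2 at 3.45±0.39 (4.8e-06), followed by C5ar1 at 2.79±0.63 (0.0029), Ltb4r1 at 2.09±0.30 (6.1e-05) and C3ar1 at 1.53±0.44 (0.016). C3ar1 did not pass without wild-type untreated library 2 (1.11, 0.08) or P248L untreated library 1 (1.205, 0.068) or 2 (1.33, 0.072). Cxcr4 (-0.73±0.25, 0.038) did not pass without any of 7 single libraries (up to 0.099) or without the pair that stood apart (-0.47, 0.065). Fpr1 is not compared this way, since the P248L untreated and day 2 groups had 0 reads.

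**Figure D4:**
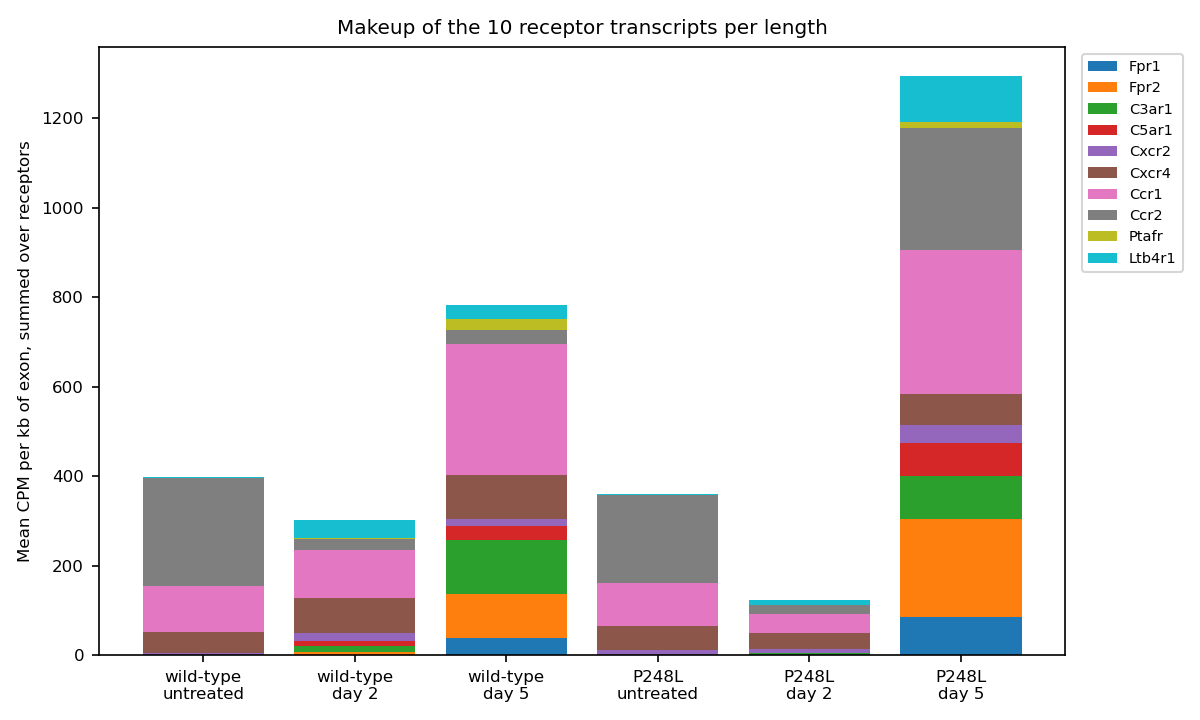
Stacked bars show the mean CPM per kb of annotated exon of each receptor, summed over the 10, in each of the 6 groups. Ccr2 fills 60.4% of the bar in wild-type untreated and 3.9% in wild-type day 5 cells, and the tallest bar, 1294 CPM per kb, is P248L day 5.

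Levels of different receptors were compared per length of annotated exon (CPM per kb). In untreated cells Ccr2, Ccr1 and Cxcr4 made up 60.4, 26.1 and 11.5% of the receptor sum in wild-type cells, at 240.2, 104 and 45.7 CPM per kb in wild-type and 196, 96.9 and 54.2 CPM per kb in P248L cells, of sums of 398.1 and 359.6. At day 2 the sum was 300.9 CPM per kb in wild-type and 122.9 CPM per kb in P248L cells, and Ccr1 led with 36.2% and 34.7% of it. At day 5 it was 783.3 and 1294 CPM per kb. Wild-type day 5 cells were led by Ccr1 (292), C3ar1 (121), Fpr2 (99.3) and Cxcr4 (98.6 CPM per kb), and Ccr2 had dropped to 30.6. P248L day 5 cells were led by Ccr1 (321), Ccr2 (273), Fpr2 (219.9) and Ltb4r1 (104 CPM per kb), and Ptafr came last at 11.7. These sums of means carry no test.

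Over the 18 libraries, Pearson's r of log2 CPM described which receptors varied together; the libraries form 6 groups, so the points are not independent. Fpr2, C3ar1, C5ar1 and Ltb4r1 had r of 0.916 to 0.975 with each other, and Fpr1 had 0.948 with Fpr2 and 0.947 with Ptafr. Ccr2 had r between -0.366 (C3ar1) and 0.365 (Ccr1) with the others. The genes most like each receptor by this measure were F7 and Rassf3 for Fpr1 (0.996 and 0.994), Evi2a and Pygl for Fpr2 (0.992 and 0.991), Lilrb4 and Lrp12 for C3ar1 (0.992 and 0.99) and Pknox2 and Klra2 for C5ar1 (0.992 and 0.99). They were Gpr107 and Npc1 for Ptafr (0.99 and 0.989), Lcn2 and Prom1 for Ltb4r1 (0.99 and 0.989) and Spata6 and Birc3 for Ccr1 (0.986 and 0.983). Cxcr2 and Cxcr4 had looser companions, Klf7 and Map3k5 (0.952 and 0.931) and Prmt2 and Cfp (both 0.925). Ccr2 had 1 close companion, Bpifc at 0.977, followed by Ddb2 at 0.919.

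Among 28 other chemoattractant receptors, 8 passed the filter on low counts, and the rest were below it. Those that passed partly did so through the groups in which they were high, so their counts are given as a description. At day 5, 7 rose and 1 fell in wild-type and 6 rose and 0 fell in P248L cells, when 73.1% and 71.1% of all tested genes changed. Cmklr1, the chemerin receptor, and Ccrl2, which binds chemerin without signalling, were lower in P248L cells at day 5: 27.4±2.23 CPM (SD, n = 3) in wild-type against 1.03±0.299 CPM in P248L cells (-4.71±0.30, edgeR adjusted p = 3.9e-09), and 158 against 18.3 CPM (-3.10±0.16, 7.4e-11). Cysltr1, a cysteinyl leukotriene receptor, went the other way at day 2, with 9.64 CPM in wild-type and 20.8 CPM in P248L cells (1.10±0.26, 0.003).

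Ligands of the receptors, and enzymes that make them, were transcribed by the same cultures. Of 27 listed genes 22 were tested. Some passed the filter on low counts through the groups in which they were high. Ccl12, for example, had 0, 1 and 180 reads over the wild-type untreated, day 2 and day 5 groups. The counts and medians of this list are therefore given as a description. At wild-type day 2, 14 rose and 1 fell (median 1.91, against 0 over all genes, of which 43.9% changed), and at P248L day 2, 5 rose and 6 fell (median 0.10, against -0.01 and 40%). By day 5, 19 rose and 3 fell in wild-type and 18 rose and 3 fell in P248L cells, beside 73.1% and 71.1% of all genes (medians 3.67 and 3.57, against -0.05 and -0.02). Ccl6, a Ccr1 ligand, went from 3.22 to 858 and 19399 CPM in wild-type and from 1.23 to 21.4 and 6513 CPM in P248L cells. Camp, the cathelicidin whose peptide acts on Fpr2 and which is also on the neutrophil marker list, stood at 41.5±5.75 CPM (SD, n = 3) at wild-type day 2 and 0.216±0.239 CPM at P248L day 2 (-7.61±0.46, edgeR adjusted p = 4.7e-10). Ccl2, the ligand of Ccr2, stood at 166±88.1 CPM at wild-type and 39.1±14.6 CPM at P248L day 5 (-2.09±0.37, 0.00016), and Ccl7, another Ccr2 ligand, at 60.4 against 1.44 CPM (-5.34±0.40, 2.4e-08). At day 2, when the Ccr2 difference between the lines did not pass, Ccl2 stood at 6.36 CPM in wild-type and 0.0796 CPM in P248L cells. The Cxcr2 ligand Cxcl2 stood at 32.8±32.5 CPM at wild-type and 129.9±71.5 CPM at P248L day 5 (1.99±0.48, 0.0023). The spread of these chemokines among libraries of 1 group was wide. Alox5, which starts leukotriene synthesis, rose at P248L day 2 from 9.28 to 98.6 CPM (3.41±0.19, 4.8e-10). Its wild-type means went from 15.6 CPM untreated to 204 CPM at day 2.

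All 20 genes of the listed Gi pathway were tested. At day 2, 7 rose and 5 fell in wild-type and 4 rose and 4 fell in P248L cells, beside 43.9% and 40% of all genes, with medians of 0.26 and -0.13 against 0 and -0.01. At day 5, 15 rose and 1 fell in wild-type and 17 rose and 1 fell in P248L cells, with medians of 0.66 and 0.65 against -0.05 and -0.02 over all genes, of which 73.1% and 71.1% changed. The wild-type total, rises and falls together, lies near that background. Pik3r5, the regulatory subunit that couples PI3Kγ to G proteins, rose by day 5 from 1.89 to 107 CPM in wild-type and from 0.77 to 30.8 CPM in P248L cells (5.81±0.27 and 5.26±0.28, edgeR adjusted p = 1.6e-12 and 1.8e-11). Prex1, the Rac exchange factor that Gβγ activates, rose in P248L cells from 35.6 to 159 CPM (2.16±0.14, 2.7e-10). Its wild-type means went from 73.9 CPM untreated to 181 CPM at day 5. Fgr, a Src-family kinase, stood at 84 CPM in wild-type and 7.48 CPM in P248L cells at day 5 (-3.48±0.23, 7.4e-09).

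Of 13 desensitisation genes, which encode receptor kinases, arrestins and RGS proteins that end Gi signals, 11 were tested. At day 5, 8 rose and 2 fell in wild-type and 9 rose and 1 fell in P248L cells, beside 73.1% and 71.1% of all genes, with medians of 1.19 and 0.96 against -0.05 and -0.02. Arrb1, an arrestin, rose from 80.8 to 310.3 CPM in wild-type (1.94±0.19, edgeR adjusted p = 5.9e-08) and from 58.3 to 364 CPM in P248L cells (2.64±0.20, 1.9e-09). The kinase gene Grk5 rose from 2.59 to 16.9 and from 3.39 to 32.7 CPM (2.71±0.19, 4.8e-10 and 3.29±0.19, 4.8e-11). Rgs1 was lower in P248L cells at day 2, 2.27 against 21.3 CPM (-3.24±0.42, 7.8e-06), and at day 5, 25.9 against 135 CPM (-2.38±0.36, 3.2e-05).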

How the data were processed

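RNA of 18 libraries, 3 in each of 6 groups set by the labels, was analysed from the deposited read counts per gene. Per the submitters' processing notes the authors aligned reads with STAR to mm10; their versions, the annotation and the counting settings were not given in the sources used here. Each deposited file has raw counts for both strands and for each strand of 23329 genes, and the column of the strand with nearly all reads was used; 1.17 to 2.54% lay on the opposite strand. Library sizes leave out reads in no single gene, 27.9 to 38.1% of a library. After filterByExpr (minimum count 10) 11942 genes were tested. TMM factors scaled the libraries, and edgeR 4.0.16 fitted all 18 with a mean for each group (R 4.3.3, quasi-likelihood F test, Benjamini-Hochberg adjustment over all tested genes, threshold 0.05). The 11 contrasts were the times within each line, the lines at each time, and the differences between the lines' changes. Values with ± after a log2 fold change are SE, and n is 3 libraries per group. Folds of groups with 0 reads use a floor of 3 reads over the group, and ratios from 1 to 3 reads have an exact counting interval at a level of 0.95.

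All 10 receptors are named. From each list, up to 3 genes per comparison could be named, those with the largest change among genes that passed, with 10 CPM or more where higher and without overlap of libraries; C5ar2, Cxcr1, Ccr3, Cx3cr1, Ltb4r2 and Cxcl12 could always be named, and Fpr3, Fpr-rs3 and Fpr-rs4 were added after their values were seen. Some genes that this rule allows are not reported here. The marker F13a1 and the other single markers given with day 5 values were also picked after their values were seen. The receptors and lists were chosen with earlier results of these data known. For 8 genes of the lists the older names in the files were matched by RefSeq synonyms. Markers were looked up in the same way, and Adgre1, for example, is Emr1 in the files. Similar genes were ranked by r of log2 CPM (prior count 2) among genes with a mean of 1 CPM or more. Lengths are merged exons of GENCODE M21, which may not be the authors' gene models, and coordinates and promoters are RefSeq's on GRCm38.p6. Reads of near-identical gene copies can be lost or shared. Same-numbered libraries correlated over 0.1 in their deviations from the group means for every number in 1 of 9 comparisons, P248L untreated and day 2 (0.46, 0.17 and 0.35); that pairing comes from the data, since no label says what the numbers mark. Alternatives were DESeq2 1.42.0, limma-voom (limma 3.58.1), other scaling factors, other filters, counts of both strands, a stricter threshold, a fit of only the groups compared, a replicate block and libraries left out. The block in P248L untreated and day 2 alone was added after seeing the data. Tests were tried on simulated data. Plots used Python 3.11.15 and matplotlib 3.10.9.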

Additional observations from a re-analysis of the deposited data

Results flagged for a closer look

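For these receptors the change with IL-3 differed between the lines by a test of that difference in edgeR, given as P248L minus wild-type on the log2 scale. At day 2 the differences were -4.84 for Fpr2, -3.21 for C5ar1, -1.98 for Cxcr2, -1.37 for Cxcr4, -1.26 for Ccr1 and -1.43 for Ltb4r1. The Fpr2 value (adjusted p = 0.0041) rests on 3 reads in wild-type untreated and 5 in P248L untreated libraries, depends on the prior count of the fit, and did not pass without P248L untreated library 2 (-3.51, 0.33). At day 5 they were 1.53 for C3ar1, 2.79 for C5ar1, -0.73 for Cxcr4, 3.45 for Ccr2 and 2.09 for Ltb4r1. Their spread, adjusted p and dependence on single libraries stand with the results above.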

How the results depend on the processing

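Over 106 single-receptor results, 3088 of 3183 alternative values kept direction and side of the threshold, 39 lost the threshold, 33 gained it and 23 changed sign, the last all at adjusted p over 0.05. Causes were not tested, apart from fewer libraries in a fit or a stricter threshold. Signs changed for Ccr1 at wild-type day 2 with upper-quartile factors (-0.023) and no scaling (-0.099), for Cxcr4 between untreated lines without the pair of P248L libraries that stood apart (-0.012), and for the Ptafr differences of changes with limma-voom (0.00041 at day 2, 0.015 at day 5) and no scaling (0.069 at day 5). With 1 library left out, ranges that crossed 0 were -0.0061 to 0.145 for Ccr1 at wild-type day 2, -0.26 to 0.043 for Cxcr2 at P248L day 2, and, between untreated lines, -0.73 to 1.33 for Fpr2 and -0.013 to 0.45 for Cxcr4. For differences of changes they were -0.50 to 0.41 for C3ar1, -0.57 to 0.19 for Ccr2 and -0.50 to 0.41 for Ptafr at day 2, and -0.21 to 1.86 for Fpr2 and -0.49 to 0.365 for Ptafr at day 5.

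In a fit of only the groups compared, all genes called were 1657 (4775 in the full fit) at P248L day 2, 1205 (2587) between untreated lines, with 1 receptor (3), and 727 (1140) for the day 2 difference of changes. At an adjusted p under 0.01 they were 1343 between untreated lines, 589 for the day 2 and 1914 (3207) for the day 5 difference of changes, the last with 3 receptors (5). With 1 library left out, all genes called ranged from 1524 to 4535 between untreated lines, the highest without P248L untreated library 3, and from 788 to 1915 for the day 2 difference of changes. Receptors called ranged from 2 to 5 between untreated lines, where C5ar1 (0.039) and Cxcr4 (0.034) passed without that library, and from 3 to 5 and 4 to 6 for the day 5 and day 2 differences of changes.

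With the replicate block over all groups, 10 receptors passed at P248L day 5 against untreated (8 without it; Cxcr4 0.395, adjusted p = 0.015, and Ccr2 0.50, 0.027, were added) and 7 from day 2 to day 5 in wild-type cells (6; Cxcr4 0.36, 0.025, was added), and counts in the other comparisons were unchanged. Where the numbers paired the libraries, P248L untreated and day 2, a block in these groups alone called 6 receptors (7 in the full fit, of which Fpr2 was not tested there) and 3479 genes. Cxcr4 from wild-type day 2 to day 5 also passed with DESeq2 size factors (0.47, 0.025), and Cxcr2 (-0.43, 0.028) and Ltb4r1 (-0.54, 0.026) passed as falls with no scaling. No scaling moved the median of all genes to -0.49 at wild-type day 5, -0.251 at P248L day 5 and 0.254 for the day 5 difference of changes, and the share of calls that were higher from 48.9 to 34.4% at wild-type day 5, from 50.4 to 36% at wild-type day 2, from 46.3 to 34.4% at P248L day 2 (36.4% with upper-quartile factors), from 51 to 40.5% from wild-type day 2 to day 5, from 47.7 to 35.8% between untreated lines and from 54.6 to 72.7% for the day 5 difference of changes. Depth limits Fpr1, Fpr2 and C5ar1 in untreated cells, where no library held more than 6 of their reads.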
